A study of Rattus norvegicus with 21 samples.

Results

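The comparison set the livers of rats given the highest dose of tert-butylphenyl diphenyl phosphate (BPDP), 1032.5 mg/kg, against those given the dose below it, 516.2 mg/kg. Its members were the 6 arrays whose titles carry these doses, 3 at each, out of 21 arrays in the series. BPDP is an organophosphate ester with aryl side groups that is used as a flame retardant and plasticiser. All animals were male Harlan Sprague Dawley rats, given 4 daily doses by gavage in corn oil and killed on day 5, when pieces of the left liver lobe were frozen. The doses correspond to 1.35 and 2.7 mmol/kg. The other 15 arrays were 6 from rats given corn oil alone, the vehicle, and 3 each at 64.6, 129.2 and 258.1 mg/kg. The ages of the animals are not given in the labels, and nothing in them ties a replicate number to a cage or day. The question was what the last doubling of the dose added in the liver beyond the dose below it.

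Most of the RNA in a piece of liver comes from hepatocytes, which divide rarely in the adult but enter the cell cycle when tissue is lost or when certain chemicals activate nuclear receptors. PPAR alpha, a receptor for fatty acids and for peroxisome proliferators, switches on genes of fatty acid oxidation in mitochondria and peroxisomes. CAR and PXR, both sensors of foreign compounds, and the aryl hydrocarbon receptor switch on cytochrome P450 enzymes. In a bulk sample, fewer cells of a type and less RNA per cell cannot be told apart.

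Every value below is a log2 signal of 1 probe set representing the gene, and a difference of 1 is a 2-fold change in signal. Differences are 1032.5 minus 516.2 mg/kg unless stated, with 3 arrays a group. Defining hepatocyte genes were among the brightest on all arrays, with a mean log2 level over 17 markers of 14.43 to 14.46 at 516.2 mg/kg and 14.45 to 14.48 at 1032.5 mg/kg. The 6 arrays did not fall cleanly into their doses. Replicate 2 at 516.2 mg/kg had a higher mean correlation across probe sets with the 1032.5 mg/kg arrays (0.993) than with its own group (0.991), and replicate 1 at 1032.5 mg/kg sat as close to the lower dose (0.992) as to its own (0.991). Probe sets are not independent, so these correlations only describe the arrays. RNA integrity differed as well. The gap between 5' and 3' control signals, averaged over Gapdh and beta-actin and more negative in degraded RNA, was -2.49, -1.58 and -2.83 at 516.2 mg/kg and -1.96, -1.37 and -1.28 at 1032.5 mg/kg. Its group means of -2.30 ± 0.64 and -1.54 ± 0.37 (SD, n = 3 each) gave p = 0.2 in a two-sided exact permutation test, where 0.10 is the smallest possible. The part of RNA integrity in the differences below was not tested on its own. Counts and medians with it as a covariate, or with 1 array left out, are given for some of the lists. A list shown without them may have moved as well.

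**Figure D1:**
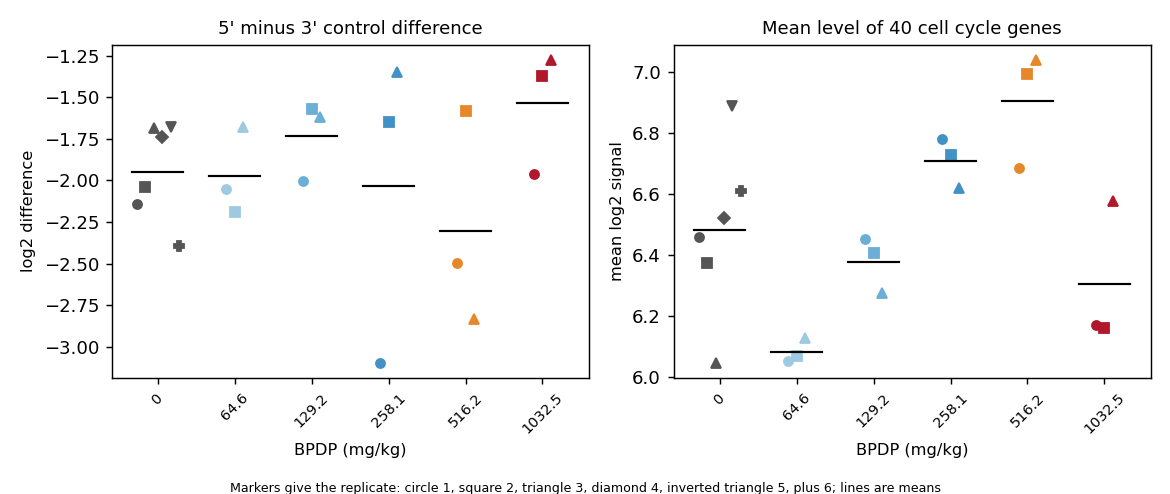
RNA integrity control (left, log2 difference of 5' minus 3' control signals, mean of Gapdh and beta-actin) and mean log2 signal of 40 cell cycle genes (right) on each of the 21 arrays against dose in mg/kg, with 0 for the vehicle and a line at each group mean. At 516.2 mg/kg replicate 2 lies apart from the other two on the left, at -1.58. On the right all 3 arrays at 516.2 mg/kg (6.69 to 7.04) lie above all 3 at 1032.5 mg/kg (6.16 to 6.58).

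No probe set differed between the doses after adjustment over all 31042 tested (limma with Benjamini-Hochberg adjustment, threshold 0.05). The smallest adjusted p was 0.0625, for Abca8, a lipid transporter of the ABC family. Its signal was 8.98, 8.68 and 9.55 at 516.2 mg/kg and 8.12, 7.86 and 8.002 at 1032.5 mg/kg, a difference of -1.08 (SE 0.16). All arrays of the higher dose lay below all of the lower one, and below the lowest of the 6 vehicle arrays, at 8.26. The next probe set for Abca8 did not show this, with a difference of 0.034.

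At an unadjusted p under 0.05, 2886 probe sets stood out (9.30%). Among the 14217 genes, 452 were higher (3.18%) and 1019 lower (7.17%) by that measure, 10.3% in all, and 608 (4.28%) and 1075 (7.56%) had no overlap between the 3 arrays of each dose. These shares are the background against which the counts below are read, and they were themselves unsteady. The probe sets at an unadjusted p under 0.05 numbered 1430 with RNA integrity as a covariate (genes 5.04%), 1610 without replicate 1 at 516.2 mg/kg (5.42%), 1923 without replicate 3 (6.78%) and 1655 without replicate 2 at 1032.5 mg/kg (5.31%). They numbered 4914 without replicate 2 at 516.2 mg/kg (16.9%), 4239 without replicate 1 at 1032.5 mg/kg (15.1%) and 5367 with array weights (18.9%). The 95% intervals bound what could have been missed: for 13887 of the 14217 genes the whole interval lay within 1 log2 unit of 0, and the median distance from the estimate to either bound was 0.25. For the other genes a difference of 2-fold or more lies inside the interval. The count depended on single arrays. Without replicate 2 at 516.2 mg/kg, 86 probe sets passed the adjusted threshold, 39 higher and 47 lower at 1032.5 mg/kg, among them Abca8, Npas2, Cyp1a1, Bub1 and Akr1c14. Without replicate 3 at 1032.5 mg/kg, 8 passed, among them Cyp1a1, Cdkn3 and Ccnb1. Since no gene passed with all arrays, the differences below are given as values and not as changes.

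**Figure D2:**
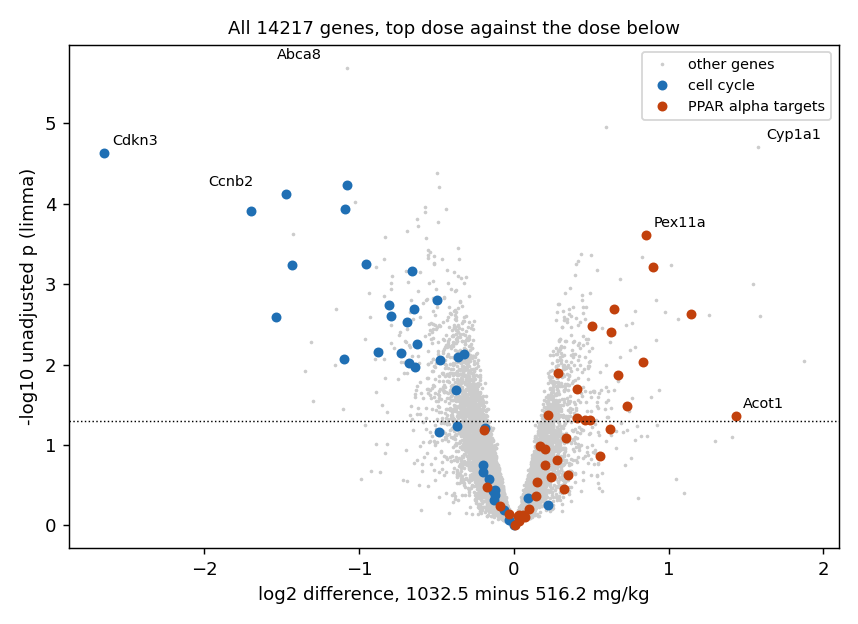
Each of 14217 genes by its log2 difference between 1032.5 and 516.2 mg/kg (horizontal axis) and -log10 of its unadjusted p (vertical axis), with 40 cell cycle genes in blue and 40 PPAR alpha targets in orange. The dotted line marks an unadjusted p of 0.05. Of the cell cycle genes 24 lie above it on the left and none on the right, and of the PPAR alpha targets 16 lie above it on the right and none on the left.

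Of 40 cell cycle genes measured, 37 were lower at 1032.5 than at 516.2 mg/kg, 24 of them at an unadjusted p under 0.05 against 7.17% of all genes, and none was higher by that measure. In 22 the doses did not overlap (7.56% of all genes). The median difference over the list was -0.49, beside -0.02 over all genes. The count was 21 with RNA integrity as a covariate, where 439 of the 14217 genes were lower, and 20 to 27 with each array left out. The mean level over the list was 6.69, 6.99 and 7.04 at 516.2 mg/kg and 6.17, 6.16 and 6.58 at 1032.5 mg/kg. The higher dose thus lay below the lower one on every array. The vehicle arrays, at a mean of 6.48, lay between the dose groups' means of 6.91 and 6.30.

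The list split by phase, in roles assigned from textbook knowledge after the values were known. All 25 genes of G2 and mitosis were lower, with a median of -0.73. Of these 19 were lower at an unadjusted p under 0.05 (7.17% of all genes) and 16 without overlap (7.56%). Of 15 genes of G1, S phase and DNA replication, 12 were lower, with a median of -0.19. In this group 5 were lower at an unadjusted p under 0.05 and 6 without overlap, also above the shares of all genes. Among the mitotic genes, Cdkn3, a phosphatase that acts on cyclin-dependent kinases, had the largest difference of all genes measured. Its signal was 8.52, 8.49 and 8.69 at 516.2 mg/kg and 5.18, 5.53 and 7.05 at 1032.5 mg/kg, a 6.27-fold difference (log2 difference -2.65, SE 0.48, adjusted p = 0.121). Replicate 3 of the higher dose was the nearest to the lower dose for Cdkn3, as it was for the whole list. Cyclin B2 (Ccnb2), a partner of the mitotic kinase, was at 7.52, 7.69 and 8.10 and then at 5.93, 6.20 and 6.76 (log2 difference -1.48, SE 0.30, adjusted p = 0.158). Cyclin A2 (Ccna2), which acts in S phase and G2, was at 5.45, 6.40 and 6.64 against 4.41, 3.91 and 5.08, and the antigen Ki-67 (Mki67) at 5.96, 6.44 and 6.49 against 4.96, 4.28 and 5.36. In both genes the doses did not overlap, with log2 differences of -1.70 and -1.43. Bub1, a kinase of the spindle checkpoint, differed by -1.08, from levels of 5.18 to 5.82 down to 4.27 to 4.55, below the lower quartile of all signals (5.03). Ccna2 and Mki67 also had values below that quartile at 1032.5 mg/kg. Dim signals understate differences on arrays of this kind. Among brighter probe sets only, 21 members of the list remained, and 12 were lower at an unadjusted p under 0.05 (821 of 9719 genes). Their median was -0.38. The motor protein Kif20a (-1.09), the cytokinesis factor Ect2 (-1.54), the mitotic kinase Cdk1 (-1.09) and the spindle-associated Hmmr (-0.96) went the same way, although the doses overlapped for Cdk1.

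Genes of DNA synthesis differed less. Rrm1, a subunit of ribonucleotide reductase, was at 8.27, 8.12 and 8.40 and then at 7.77, 7.31 and 7.74, a log2 difference of -0.66 with no overlap. Tyms and Tk1, which supply thymidine nucleotides, differed by -0.50 and -0.32, and the replicative helicase subunits Mcm2 and Mcm4 by -0.36 and -0.38. The helicase subunit Mcm5 (0.00), the sliding clamp Pcna (0.01), the kinase Cdk2 (-0.03) and the G1 cyclin Ccnd1 (0.22, interval -0.55 to 0.99) lay near 0, with wide limits for Ccnd1. Cdca3 and Knstrn, a mitotic regulator and a spindle protein outside the list, had differences of -1.15 and -0.93 with no overlap.

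Against the vehicle, with which both doses share the same control arrays, the median over the list was 0.38 at 516.2 mg/kg and -0.16 at 1032.5 mg/kg. At 516.2 mg/kg 10 members rose (6.30% of all genes) and none fell (2.64%). At 1032.5 mg/kg 1 rose (4.81% of all genes) and none fell (4.14%), and that gene was Kif11, a spindle motor, which rose at both doses by 0.72 and 0.58. Cdkn3 rose by 1.65 at 516.2 mg/kg (adjusted p = 0.0235), and at 1032.5 mg/kg its difference from the vehicle was -0.999 (adjusted p = 0.197). The vehicle arrays themselves ranged from 6.05 to 6.89 in mean level over the list. The difference between the top doses held its direction under every alternative setting run: the median stayed between -0.68 and -0.38, and it was -0.48 with RNA integrity as a covariate, -0.49 without replicate 2 at 516.2 mg/kg and -0.53 with that replicate alone against the higher dose.

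**Figure D3:**
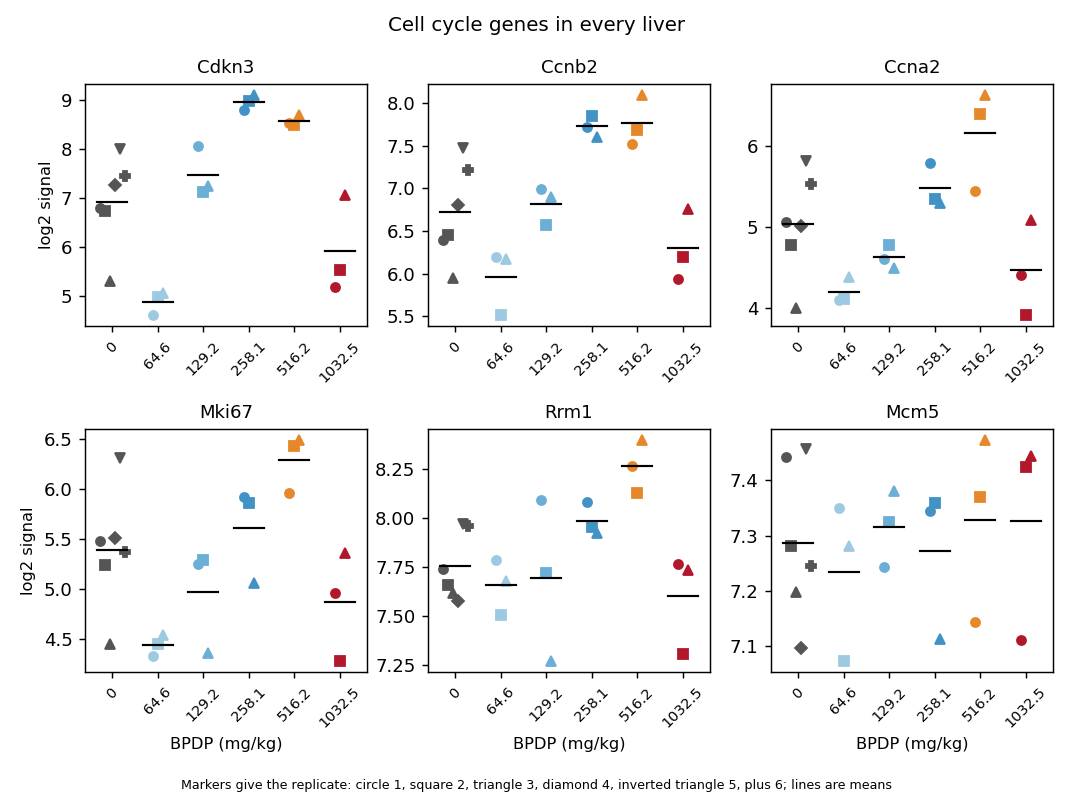
Log2 signal of 6 cell cycle genes on every array against dose in mg/kg (0 is the vehicle), with a line at each group mean. Cdkn3, Ccnb2, Ccna2, Mki67 and Rrm1 are higher on all arrays at 516.2 mg/kg than on all at 1032.5 mg/kg, and Mcm5 overlaps.

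Promoter sequence is shown for Ccnb2 and Cdkn3 because genes of G2 and mitosis are known to share a pair of elements near their start: TTTGAA, the cell cycle gene homology region, and CCAAT, the box bound by NF-Y. Both run 5' to 3' on the strand of the gene over the 250 bases before the RefSeq start (assembly GRCr8), and capitals mark the matches to either element on either strand. The Ccnb2 window is chr8:79981659-79981908 on the minus strand and holds 2 TTTGAA and 3 CCAAT matches. The Cdkn3 window is chr15:22502136-22502385 on the plus strand and holds 1 and 3.
Ccnb2: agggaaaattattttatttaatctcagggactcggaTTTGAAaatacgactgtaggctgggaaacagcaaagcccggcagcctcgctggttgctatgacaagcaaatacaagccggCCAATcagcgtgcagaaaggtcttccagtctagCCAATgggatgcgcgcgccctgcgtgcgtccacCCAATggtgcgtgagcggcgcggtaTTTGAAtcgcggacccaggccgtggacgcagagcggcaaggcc
Cdkn3: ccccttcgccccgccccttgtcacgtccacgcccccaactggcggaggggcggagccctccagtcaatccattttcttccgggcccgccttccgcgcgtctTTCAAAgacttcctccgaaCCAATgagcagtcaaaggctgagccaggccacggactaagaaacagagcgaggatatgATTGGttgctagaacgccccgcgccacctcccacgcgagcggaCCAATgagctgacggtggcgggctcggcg
The window of Bub1 held neither element. Over the list, 32 of 40 members had a promoter entry. TTTGAA stood in 12 of these 32 (37.5%), against 16.0% of the 27457 promoters in the table, and CCAAT in 24 (75%), against 34.3%. Of the 20 entries for members that were lower at an unadjusted p under 0.05, 11 held TTTGAA, and of the 12 for the other members 1 did. CCAAT stood in 15 of the 20 and 9 of the 12. The members were divided here by the p of the comparison described. Of the 24 lower ones 19 were genes of G2 and mitosis, so a split by p cannot be told apart from a split by role. The elements do not overlap each other in sequence, and a match is a description of the letters in this window.

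**Figure D4:**
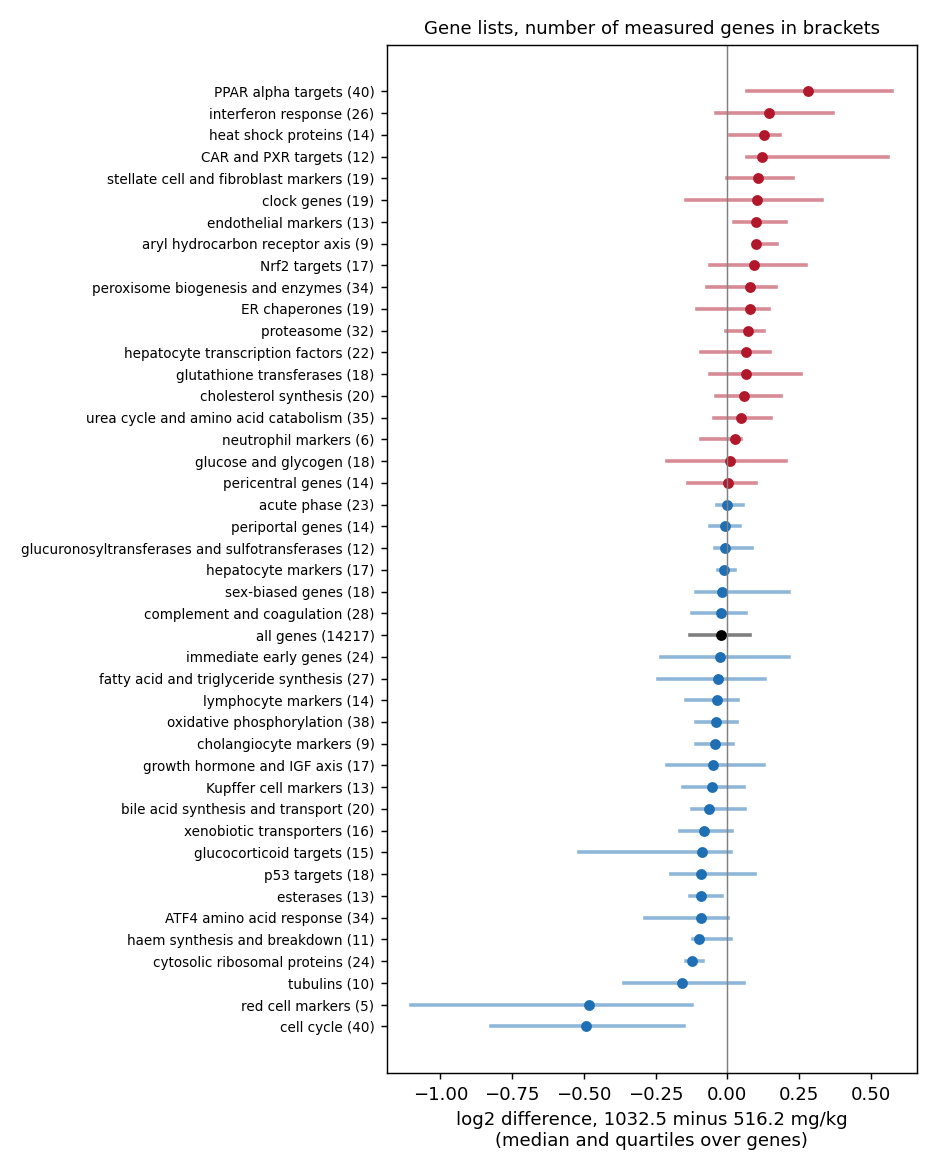
Median (point) and quartiles (bar) of the log2 difference between 1032.5 and 516.2 mg/kg over the measured genes of 43 lists and over all genes (black). Cell cycle genes at -0.49 and 5 red cell markers at -0.48 lie on the left, an order that turned with RNA integrity as a covariate (-0.48 and -0.62), without replicate 3 at 516.2 mg/kg (-0.42 and -0.69) and without replicate 2 at 1032.5 mg/kg (-0.41 and -0.45), and PPAR alpha targets lie on the right at 0.28.

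PPAR alpha targets had a median of 0.28. Of 40 measured, 36 were higher at 1032.5 mg/kg, 16 at an unadjusted p under 0.05 against 3.18% of all genes and none lower, and 9 had no overlap (4.28% of all genes). The mean level over the list was 10.27, 10.28 and 10.24 at 516.2 mg/kg and 10.27, 10.85 and 10.73 at 1032.5 mg/kg. Replicate 1 of the higher dose therefore stood at the level of the lower dose, and replicates 2 and 3 carried the difference. Without replicate 1 at 1032.5 mg/kg 24 members were higher at an unadjusted p under 0.05 (15.1% of all genes, either way) and the median was 0.41. The count was 8 and the median 0.16 without replicate 2 of that dose. It was 9 without replicate 3 of that dose, 9 without replicate 3 at 516.2 mg/kg, and 9 with RNA integrity as a covariate.

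Members differed in how they behaved. Pex11a, a peroxisomal membrane protein that drives division of the organelle, was at 9.45, 9.32 and 9.50 and then at 9.92, 10.81 and 10.10, higher on all 3 arrays (log2 difference 0.85, SE 0.19, adjusted p = 0.222). The thioesterases Acot4 and Acot3, which release fatty acids from coenzyme A, differed by 0.90 and 0.63 without overlap. Cidea, a lipid droplet protein, was at 9.79, 9.18 and 9.86 against 10.16, 11.06 and 11.07 (log2 difference 1.15, SE 0.33). Cpt2, which passes fatty acids into mitochondrial oxidation, and the enoyl-CoA isomerase Ech1 differed by 0.50 and 0.67, again without overlap. Aqp3, an aquaporin that carries glycerol, differed by 0.65 at dim levels. Against the vehicle Pex11a rose by 1.12 at 1032.5 mg/kg (adjusted p = 0.000204), and at 516.2 mg/kg its difference was 0.27 (adjusted p = 0.377).

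The classical markers of the pathway were divided by array rather than by dose. Cyp4a1, which hydroxylates fatty acids, was at 13.002, 12.95 and 12.99 and then at 12.15, 13.46 and 13.45, a difference of 0.04 (interval -0.50 to 0.57). Its 3 values at the lower dose lay between those of the higher dose. The same order held for Acot1, a cytosolic thioesterase, at 8.46, 8.32 and 8.13 against 7.38, 11.46 and 10.37 (log2 difference 1.43, interval 0.04 to 2.82). The peroxisomal enzyme Ehhadh (13.35, 13.69 and 13.72 against 13.05, 13.96 and 14.06) and the isomerase Eci1 (13.57, 13.44 and 13.51 against 13.15, 14.06 and 14.02) also had replicate 1 of the higher dose below and replicates 2 and 3 above the lower dose. All 4 of these genes rose against the vehicle at both doses. Plin2, a coat protein of lipid droplets, fell against the vehicle at both, by 1.21 and 1.38, with a difference of -0.17 between them. Fabp1, the liver fatty acid binding protein, and the dehydrogenases Acadm and Acadl differed by -0.03, 0.03 and 0.03.

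Beyond the PPAR alpha list, 34 genes of peroxisome biogenesis and peroxisomal enzymes had a median of 0.08. At an unadjusted p under 0.05, 6 were higher (3.18% of all genes) and 2 lower (7.17%). Pex11a, Pex19, Ehhadh, Hsd17b4, Ech1 and Crat stand on both lists, so the counts of the lists are not separate. With RNA integrity as a covariate 3 were higher and none lower (5.04% of all genes, either way). Without replicate 1 at 1032.5 mg/kg 10 were higher (15.1% of all genes, either way). Pex16, an import factor for membrane proteins, differed by 0.29, and Abcd4 by -0.29.

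**Figure D5:**
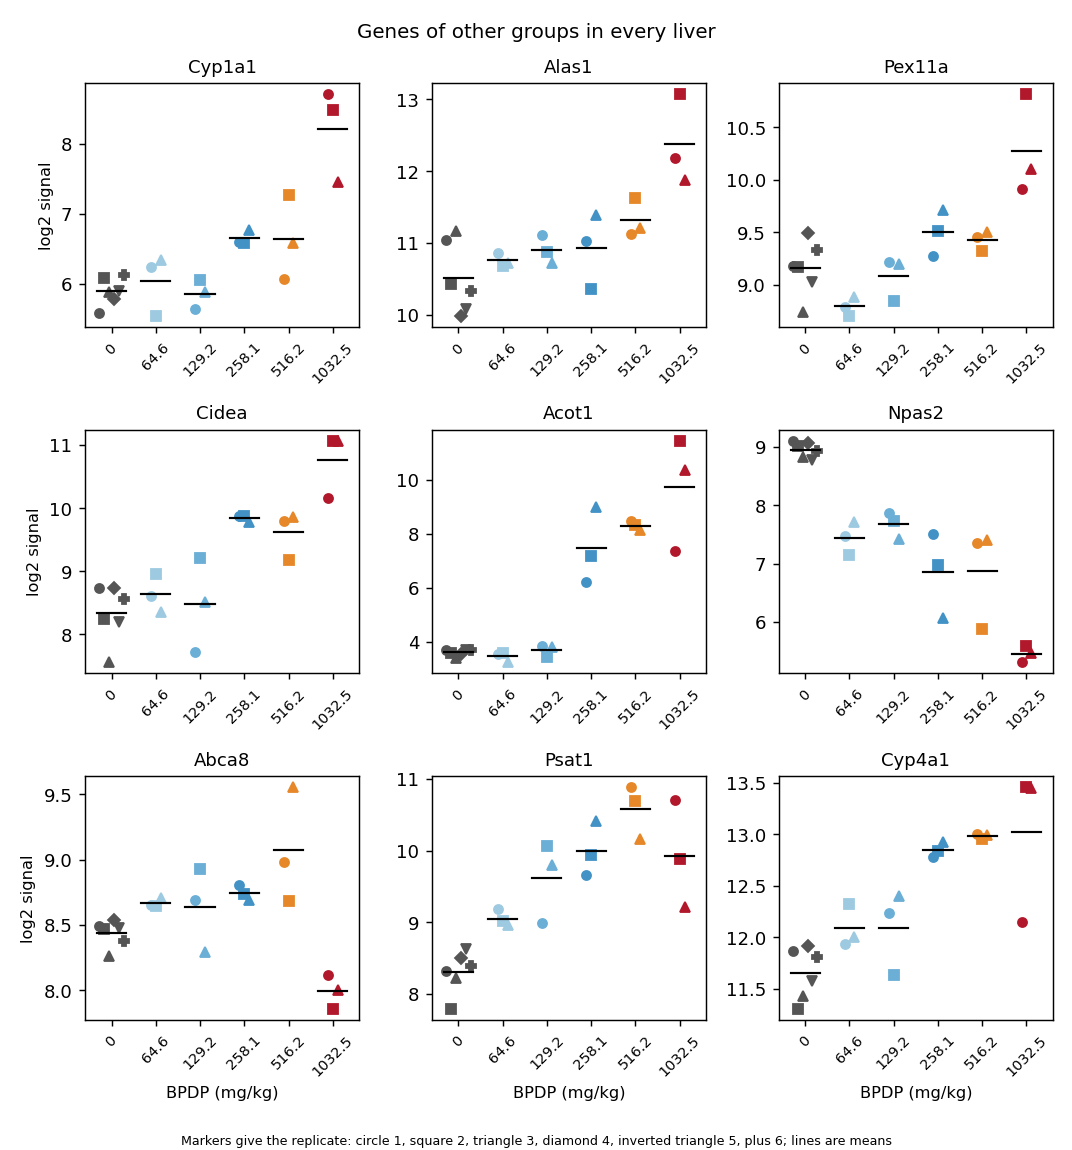
Log2 signal of 9 genes on every array against dose in mg/kg (0 is the vehicle), with a line at each group mean. Cyp1a1, Alas1, Pex11a and Cidea are higher on all arrays at 1032.5 mg/kg than on all at 516.2 mg/kg, Npas2 and Abca8 are lower, and Acot1, Psat1 and Cyp4a1 overlap.

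Among genes of xenobiotic metabolism, Cyp1a1, the P450 induced through the aryl hydrocarbon receptor, had the third smallest p of all genes, after Abca8 and Spsb1. It was at 6.06, 7.28 and 6.58 at 516.2 mg/kg and at 8.71, 8.48 and 7.46 at 1032.5 mg/kg, a 2.99-fold difference (log2 difference 1.58, SE 0.28, adjusted p = 0.121). The doses did not overlap. Against the vehicle it rose at 1032.5 mg/kg by 2.33. The difference was 0.75 at 516.2 mg/kg (adjusted p = 0.08). No other gene of the receptor's list of 9 reached an unadjusted p under 0.05, although 2 did in all with RNA integrity as a covariate, without replicate 3 at 516.2 mg/kg and without replicate 1 at 1032.5 mg/kg: Cyp1b1 differed by 0.20, Ahrr, the receptor's repressor, by 0.09, Tiparp by -0.11, and Cyp1a2, a main P450 of the adult liver, by -0.16 after falling against the vehicle at both doses by 1.004 and 1.16.

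Of 12 CAR and PXR targets 11 were higher at 1032.5 mg/kg, 4 at an unadjusted p under 0.05 (3.18% of all genes), with a median of 0.12. Single arrays moved this: the count was 1 and the median 0.088 without replicate 1 at 516.2 mg/kg, and 2 and 0.046 without replicate 2 at 1032.5 mg/kg. The median was 0.25 without replicate 1 at 1032.5 mg/kg, 0.19 without replicate 2 at 516.2 mg/kg and 0.086 with RNA integrity as a covariate. Cyp3a9 was at 7.16, 5.96 and 8.34 and then at 8.47, 8.85 and 8.91 (log2 difference 1.59, SE 0.46, adjusted p = 0.353). It fell against the vehicle by 2.14 at 516.2 mg/kg, and at 1032.5 mg/kg the difference was -0.55 (adjusted p = 0.536). The spread at the lower dose was wide. Ces2c, a carboxylesterase, was at 11.57, 12.75 and 11.93 against 12.66, 13.21 and 12.63, a difference of 0.75, and replicate 2 of the lower dose lay among the values of the higher dose. Por, the reductase that feeds electrons to P450 enzymes, differed by 0.74 without overlap. The abundant P450 genes hardly differed: Cyp3a23-3a1 by 0.07, Cyp3a2 by 0.09, Cyp2c6v1 by 0.06 and Cyp2b3 by -0.01, each with an interval that includes 0. Abcb1a, an efflux pump for drugs, differed by 0.69 (8.27, 8.40 and 7.60 against 8.82, 8.91 and 8.59).

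Of 11 genes of haem synthesis and breakdown, 3 were higher at 1032.5 mg/kg and 8 lower. At an unadjusted p under 0.05, 2 were higher (3.18% of all genes) and 1 lower (7.17%). The doses did not overlap for 2 higher (4.28% of all genes) and 2 lower genes (7.56%). Alas1, the rate-limiting enzyme of haem synthesis in liver, was at 11.12, 11.62 and 11.20 and then at 12.18, 13.07 and 11.88 (log2 difference 1.06, SE 0.31, adjusted p = 0.353). Hmox1, which breaks haem down and is a target of the oxidant sensor Nrf2, was at 9.02, 9.53 and 9.41 and then at 9.96, 10.9998 and 9.74 (log2 difference 0.92, SE 0.29, adjusted p = 0.384). Neither gene overlapped between doses, and replicate 2 of the higher dose was the highest in both. Against the vehicle both rose at 1032.5 mg/kg, by 1.87 and 1.01, and neither passed at 516.2 mg/kg (0.81, adjusted p = 0.0809, and 0.09, adjusted p = 0.874). Fech, which inserts the iron, differed by -0.34, and the list of 11 haem genes had a median of -0.10.

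Of 17 Nrf2 targets 10 were higher and 2 at an unadjusted p under 0.05 (3.18% of all genes), Hmox1 and the glutathione reductase Gsr (0.76), and the median was 0.09. The median was 0.010 with RNA integrity as a covariate, 0.030 without replicate 3 at 516.2 mg/kg, 0.035 without replicate 2 at 1032.5 mg/kg and 0.18 without replicate 1 of either dose. The count was 0 without replicate 2 at 1032.5 mg/kg, and 4 without replicate 2 at 516.2 mg/kg or without replicate 1 or 3 at 1032.5 mg/kg. The share of all genes, either way, was 16.9% without replicate 2 at 516.2 mg/kg and 15.1% without replicate 1 at 1032.5 mg/kg. Maff, a small Maf partner of Nrf2 and of related factors, was at 5.36, 5.67 and 5.07 and then at 6.34, 8.45 and 5.96 (log2 difference 1.55, SE 0.40). Trim25, a ubiquitin ligase, differed by 1.26, and Colq by 0.78. In all of Maff, Trim25 and Colq the doses did not overlap, and replicate 2 of the higher dose was the highest, as for Hmox1, Alas1, Pex11a and Acot4. None of 18 glutathione transferases reached an unadjusted p under 0.05, and 3 did, all higher, without replicate 2 at 516.2 mg/kg or without replicate 1 at 1032.5 mg/kg. Without replicate 2 at 516.2 mg/kg the 3 were 16.7% of the list. By that measure 767 of the 14217 genes were higher, and 16.9% of all genes stood out either way. The background share without replicate 1 at 1032.5 mg/kg was also above that with all arrays.

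Stress and growth arrest genes went both ways. Cdkn1a, the p21 inhibitor of cyclin-dependent kinases, was at 8.62, 8.43 and 8.69 and then at 7.59, 7.82 and 7.94 (log2 difference -0.80, SE 0.26, adjusted p = 0.389), and it fell against the vehicle at both doses, by 1.52 and 2.32. Rprm, another inhibitor of the cell cycle, was at 7.47, 6.40 and 7.22 against 5.62, 5.03 and 6.40. Gadd45a, a gene induced by DNA damage and other stress, was at 8.97, 9.05 and 8.61 against 9.99, 9.98 and 9.48, and Mdm2, the ligase that controls p53, differed by 0.44. The doses did not overlap for any of these 4 genes, although for Rprm they met at 6.40. Over 18 p53 targets 2 were higher (3.18% of all genes) and 2 lower (7.17%) at an unadjusted p under 0.05, and the median was -0.09. With RNA integrity as a covariate 1 was higher and 1 lower, and the median was -0.003.

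Genes of the amino acid response directed by ATF4 had a count near the background. Of 34 genes 25 were lower, 3 at an unadjusted p under 0.05 (7.17% of all genes) and none higher, with a median of -0.09 and no gene without overlap (7.56% of all genes lower). The count was 0 without replicate 1 at 516.2 mg/kg or without replicate 2 or 3 at 1032.5 mg/kg, and 1 with RNA integrity as a covariate. It was 5 without replicate 2 at 516.2 mg/kg (16.9% of all genes, either way) and 9 without replicate 1 at 1032.5 mg/kg (15.1%). Psat1, an enzyme of serine synthesis, was at 10.89, 10.70 and 10.16 and then at 10.70, 9.88 and 9.21 (log2 difference -0.66, SE 0.31, adjusted p = 0.532). It rose against the vehicle at both doses, by 2.28 and 1.62. Asns, the asparagine synthetase, was at 10.35, 10.35 and 9.84 against 10.63, 9.26 and 9.26, so that replicate 1 of the higher dose stood with the lower dose. Mthfd2, a mitochondrial folate enzyme, differed by -0.60, and Chac1 and Atf3 by -0.51 and -0.39 with intervals that include 0. TGATG, a core of the ATF4 element, stood on either strand in 9 of the 30 promoters of this list in the table (30.0%) and in 39.5% of all, over 250 bases before to 50 after the start.

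Of 19 clock genes, 13 had an interval that lay within 1 log2 unit of 0, against 13887 of all 14217 genes, so larger differences remain possible for the other 6. Npas2, a partner of BMAL1 in driving clock transcription, was at 7.36, 5.88 and 7.40 and then at 5.31, 5.59 and 5.46 (log2 difference -1.43, SE 0.32, adjusted p = 0.222). It fell against the vehicle at both doses, by 2.07 and 3.50, and replicate 2 of the lower dose lay near the higher dose. Bmal1 itself differed by -0.47 (interval -1.08 to 0.14), Dbp by 0.34 (-0.22 to 0.91), Nr1d1 by -0.37 (-0.97 to 0.22) and Per3 by 0.47 (-0.14 to 1.08). In sign 13 of the 19 were higher, 1 of them at an unadjusted p under 0.05 (Tef, 0.37, whose next probe set gave -0.15), and the median was 0.10. Without replicate 2 at 516.2 mg/kg 3 were higher and 2 lower at that p (16.9% of all genes, either way), and the median was 0.21. The E-box CACGTG, the site of the CLOCK and BMAL1 pair, stood on either strand in 3 of 17 promoters of the list (17.6%) and in 6.65% of all.

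Of 26 interferon response genes 18 were higher at 1032.5 mg/kg and 4 at an unadjusted p under 0.05 (3.18% of all genes), with a median of 0.14. Isg15, a ubiquitin-like protein, was at 8.49, 8.28 and 9.10 and then at 9.64, 9.24 and 9.28 (log2 difference 0.76, SE 0.23), and Oas1a, a sensor of double-stranded RNA, differed by 0.89. The list's mean level at 516.2 mg/kg was 8.74, 8.28 and 9.02, so replicate 2 stood low, and without it the median was -0.05 and the count 1. The median was 0.23 and the count 2 with RNA integrity as a covariate, and the median was 0.27 without replicate 3 at 516.2 mg/kg and 0.048 without replicate 1 at 1032.5 mg/kg. Lgals9, a galectin outside the list, was at 8.72, 8.95 and 8.75 against 9.44, 9.58 and 9.88 (log2 difference 0.83, SE 0.20).

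Markers of most of the liver's cell types had medians between the quartiles of all genes (-0.13 and 0.08). Stellate cell and fibroblast markers and endothelial markers lay above the upper quartile, and red cell markers below the lower one. The median difference was -0.05 for 13 Kupffer cell markers, 0.11 for 19 stellate cell and fibroblast markers, 0.10 for 13 endothelial markers, -0.04 for 9 cholangiocyte markers, -0.04 for 14 lymphocyte markers, 0.03 for 6 neutrophil markers and -0.01 for 17 hepatocyte markers. For Kupffer cell markers it was -0.14, with 12 of 13 lower, when RNA integrity was a covariate, and -0.14 without replicate 2 and 0.098 without replicate 1 at 516.2 mg/kg. Without that replicate 1 the stellate cell and fibroblast median was 0.049 and the endothelial median -0.003. The macrophage lysozyme Lyz2 (-0.48) and the stromal proteoglycan Dcn (0.72) were the members of these lists that differed without overlap at an unadjusted p under 0.05, with the amino acid enzyme Tdo2 (0.45) among hepatocyte genes. All 5 red cell markers were lower at 1032.5 mg/kg. Hbb, a globin chain, was at 11.97, 13.98 and 11.13 and then at 11.54, 11.76 and 10.47, and Alas2, the red cell form of Alas1, at 7.08, 9.40 and 5.93 against 6.50, 6.40 and 5.61. Replicate 2 at 516.2 mg/kg was the highest in both, and the doses otherwise overlapped. The list's median was -0.48 with that array and -0.19 without it, and -0.62 with RNA integrity as a covariate. The mean level of the 5 markers was 7.35, 8.47 and 6.90 at 516.2 mg/kg and 7.03, 7.10 and 6.73 at 1032.5 mg/kg. Their part in the differences of other lists was not tested.

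Among the 664 genes called against the vehicle at both doses, a filter that leaves out genes such as Cyp3a9 and Cdkn3 that passed at 516.2 mg/kg alone, the 8 largest rises at 516.2 mg/kg were Acot1, Dbp, Ces2c, Abcc3, Zfp354a, Hdc, Gsta3 and Nr1d1. The conjugate exporter Abcc3 stood 2.82 above the vehicle at 516.2 and 3.17 at 1032.5 mg/kg, and the glutathione transferase Gsta3 2.49 and 2.76. Zfp354a, a zinc finger gene, stood 2.52 and 3.34 above it, and Hdc, which makes histamine, 2.49 and 3.04. The 8 largest falls were Slc6a6, Scd, Stac3, Bmal1, Egr1, Npas2, Lox and Apoa4. The taurine transporter Slc6a6 stood at -3.59 and -3.92 from the vehicle, and the desaturase Scd at -2.66 and -3.36. The difference between the doses was largest for Npas2 and Acot1. For Lox (0.02, interval -1.30 to 1.34) and Scd (-0.69, interval -1.99 to 0.60) the arrays leave differences of 2-fold or more possible. Both doses are set against the same vehicle arrays, so the direct difference between them is the comparison to read.

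The last doubling of the dose was also set against the one before it, from 258.1 to 516.2 mg/kg. No probe set passed in the difference between these steps (smallest adjusted p = 0.501), and 2614 stood at an unadjusted p under 0.05 (8.42%). The earlier steps gave no call either, with 2140 probe sets at an unadjusted p under 0.05 from 258.1 to 516.2 mg/kg (6.89%), 1567 from 129.2 to 258.1 mg/kg (5.05%) and 1546 from 64.6 to 129.2 mg/kg (4.98%). Since the count for the top step fell to 1430 with RNA integrity as a covariate, 1610 without replicate 1 at 516.2 mg/kg and 1655 without replicate 2 at 1032.5 mg/kg, no order of the steps is read from these counts. The genes with the smallest p in the difference between steps were Abca8, Tyro3, Agps, Rps6ka6 and Trip6. Tyro3, a receptor tyrosine kinase, stood 0.71 above the vehicle at 516.2 mg/kg and 0.19 at 1032.5 mg/kg. Agps, which starts the synthesis of ether lipids, stood at -0.33 and 0.08. Without replicate 2 at 516.2 mg/kg 72 probe sets passed in this difference, 41 upward and 31 downward.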

How the data were processed

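Liver RNA was hybridised to 21 Affymetrix rat expression arrays after amplification from 100 ng of total RNA, per the labels' protocols. The deposited table holds log2 values produced by RMA, per the submitters' processing notes, and its version is not given in the sources used here. They were used as deposited, with no scaling, filter or pseudocount. There is no read depth on an array, so precision is set by how many arrays a group has. After 57 array controls were set aside, 31042 probe sets were tested, and each of 14217 genes was represented by its probe set of highest mean among those naming that gene alone. Symbols were updated through RefSeq (assembly GRCr8), from which the promoters also come.

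One model with a coefficient per dose group was fitted to all 21 arrays in limma 3.58.1 (R 4.3.3, lmFit and eBayes), with two-sided p-values adjusted by the Benjamini-Hochberg method over the 31042 probe sets of a comparison and a threshold of 0.05. Intervals cover 95%. The labels list the arrays as replicates without saying that each is a separate animal, so p-values measure the spread between arrays. The treatment protocol names 5 vehicle rats and 6 vehicle arrays are listed, all used.

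The 43 gene lists held 988 members, 847 of them measured (771 different genes), and were described by counts and medians. Members and lists were chosen with earlier results of these data known. Genes were named by rule: the 12 largest differences each way among genes at an unadjusted p under 0.05 whose doses did not overlap and whose higher mean lay above the median of all values; up to 3 members of smallest p per list; the 8 strongest rises and falls at 516.2 mg/kg among genes called against the vehicle at both doses; the 5 smallest p each way in the difference between steps; and index genes. Other list members are named with their values to describe a list, and were chosen after these were seen. The script was tested on simulated data. Alternatives were cyclic loess, subtraction of array medians, a fit restricted to the doses compared, brighter probe sets only, 1 probe set per gene, a variance trend, array weights, the replicate number as a block, RNA integrity as a covariate, another probe set, and each array left out. Joint removal of replicates 1 and 3 at 516.2 mg/kg, list medians with the RNA covariate, and the TTTGAA and CCAAT searches were added after the data were seen.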

Additional observations from a re-analysis of the deposited data

Results flagged for a closer look

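The same 6 vehicle arrays were examined in 170 sets of values. In 9 sets, each for a gene described here, an array lay far from the rest. Chance alone meets this test in about 1 of 20 sets, and 9 of 170 is close to that share. The vehicle group is the background for the doses and does not enter the difference between them other than through the shared spread. The outlying log2 signal and the nearest other vehicle value were 7.07 and 8.41 for Rprm, an inhibitor of the cell cycle, 12.34 and 13.22 for the globin Hbb, 9.29 and 7.02 for the neutrophil protein S100a9, and 6.74 and 6.21 for the stress gene Gadd45b. They were 5.15 and 5.37 for Agps, 8.77 and 9.25 for the glutathione transferase Gstp1, 7.67 and 7.38 for the growth hormone signal transducer Stat5b, 11.04 and 10.90 for the deacetylase Aadac, and 14.77 and 14.72 for the plasma protein Ahsg.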

How the results depend on the processing

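The count of 0 probe sets between 1032.5 and 516.2 mg/kg stayed at 0 in a fit of the compared doses alone, with either other scaling, among brighter probe sets and with RNA integrity as a covariate. It became 1 (Abca8) with 1 probe set per gene and with the intensity trend and robust variance, 10 with array weights (4 higher, 6 lower) and 2 (Alox15 and Alas2, both lower) without replicates 1 and 3 at 516.2 mg/kg together. With each array left out in turn it ran from 0 to 86 (86 without replicate 2 at 516.2 mg/kg and 8 without replicate 3 at 1032.5 mg/kg), and the difference between the top steps from 0 to 72 (72 without replicate 2 at 516.2 mg/kg). The step from 64.6 to 129.2 mg/kg gave 4 when fitted alone. The causes were not tested. The labels do not say whether equal replicate numbers pair the arrays, and a pairing was not tested. Correlations of deviations from the group means were 0.21, 0.31 and -0.09 for equal numbers. For unequal numbers they ran from -0.37 to 0.21. With the replicate number as a block the count was 0 (smallest adjusted p 0.0661). With that block 8 clock genes were higher and 3 lower at an unadjusted p under 0.05 (9.60% of all genes, either way), and 3 immediate early genes were higher and 4 lower. The scalings moved the median of all genes by -0.03 and 0.01. No gene passed the threshold in the main fit, so a change of sign could fall only on genes not called there. Of the named genes, 45 values under an alternative had the other sign. Without replicates 1 and 3 at 516.2 mg/kg these were Abcc3 -0.062, Adgre1 0.24, Cd8a 0.099, Cxcr2 -0.053, Cyp3a23-3a1 -0.038, Gsr -0.12, Gsta3 -0.17, Gstp1 -0.11, Hsp90ab1 -0.036, Me1 -0.042, Nqo1 -0.11, Nr1d1 0.015, Orm1 -0.00527, Stac3 0.18 and Zfp354a -0.00133. With another probe set they were Abca8 0.034, Cd3e 0.019, Cd8a 0.0077, Cdh11 -0.034, Dusp1 0.081, Fos -0.31, Nsdhl 0.024, Tef -0.15 and Tube1 0.24. RNA integrity as a covariate gave Cyp4a1 -0.053, Hsp90ab1 -0.017 and Stac3 0.23, array weights gave Apoa4 0.12, and Lox was -0.0047 with array medians subtracted and -0.010 with cyclic loess. With 1 array left out at a time the range was -0.61 to 0.13 for Apoa4, -0.17 to 0.0052 for Cftr, -0.00985 to 0.11 for Cxcr2, -0.61 to 0.026 for Cyp2c11, -0.080 to 0.35 for Cyp3a23-3a1, -0.19 to 0.47 for Cyp4a1, -0.0079 to 0.32 for Hsp90ab1, -0.25 to 0.19 for Lox, -0.041 to 0.15 for Mmp8 and -0.80 to 0.13 for Stac3. Signal near background limits Bub1, Aqp3, Agps and other dim genes, and 3 arrays a dose limit every difference.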

Other observations

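Of 18 genes of glucose and glycogen metabolism, 3 were lower at 1032.5 than at 516.2 mg/kg at an unadjusted p under 0.05 (7.17% of all genes). None was higher by that measure (3.18%). In all 3 the doses did not overlap (7.56% of all genes lower). Gckr, the regulator of glucokinase, was at 11.64, 11.41 and 11.50 and then at 10.90, 10.84 and 11.27 (log2 difference -0.52, SE 0.13). Pklr, the liver pyruvate kinase, differed by -0.55 and Pygl, the glycogen phosphorylase, by -0.32. All 3 fell against the vehicle at 1032.5 mg/kg. Over the list 9 genes were higher and 9 lower, with a median of 0.01. Acsl5, which activates fatty acids for lipid synthesis, differed by -0.55 and Acsl1 by 0.25, both without overlap.

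Of 10 tubulin genes 3 were lower (7.17% of all genes) and 1 higher (3.18%) at an unadjusted p under 0.05. Tubb2a, a beta-tubulin, was at 10.70, 10.48 and 11.004 and then at 9.89, 9.78 and 10.14 (log2 difference -0.79, SE 0.24). It fell against the vehicle at both doses, by 1.78 and 2.57, and Tubb5, another beta-tubulin, differed by -0.41. Tube1 differed by -0.45, while its next probe set gave 0.24. Cytosolic ribosomal protein genes differed mostly one way: 20 of 24 were lower, beside 7901 of all 14217 genes. None was so at an unadjusted p under 0.05, and the median was -0.12. Without replicate 1 at 1032.5 mg/kg 6 of the 24 were lower at that p (15.1% of all genes, either way) and the median was -0.20.

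A list of 35 enzymes that break down amino acids, those making urea included, had a count near the background. At an unadjusted p under 0.05, 3 were higher at 1032.5 mg/kg (3.18% of all genes) and 1 lower (7.17%). Together these were 11.4% of the list, beside 10.3% of all genes, and the list's median was 0.05. Otc (0.46) and Ass1 (0.46) were among the 3 higher. Without replicate 1 at 516.2 mg/kg none of the 35 was higher at that p. Of 24 immediate early genes 5 were higher by that measure (3.18% of all genes) and none lower (7.17%), with a median of -0.03. Without replicate 2 at 516.2 mg/kg 3 were higher and 2 lower (16.9% of all genes, either way). The 5 higher with all arrays included Fos (5.72, 5.92 and 5.71 against 6.11, 6.21 and 6.18), whose next probe set gave -0.31, and Klf2 (0.27). Respiratory chain subunits had a median of -0.04 over 38 genes, with Cyc1 at -0.35. The spread within a dose was alike: the median SD over genes was 0.14 at both, and 22 genes had an SD over 1 at each.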
